A study of Mus musculus with 4 samples.

Results

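The genes examined here were the 4 Argonautes and 6 further genes of microRNA (miRNA) production and action, 10 of the 36163 gene names on the arrays. They were chosen by name: Ago1, Ago2, Ago3, Ago4, Drosha, Dgcr8, Xpo5, Dicer1, Tarbp2 and Tnrc6a. All probes that the scanner files give for these names were used (the Argonautes appear there as Eif2c1 to Eif2c4), which made 14 of 55681 probes. Ago1, Ago2, Ago4 and Drosha had 2 probes each and the other 6 genes 1 each. RNA came from E14Tg2A, a mouse embryonic stem (ES) cell line of strain 129/Ola, in 4 states with 1 array each. ES was the untreated line at 0 days in vitro (DIV), grown in serum with LIF, and ELA was the untreated epiblast-like aggregate after 2 DIV, floating in a chemically defined minimal medium. AZA was ELA formed with 50 nM 5-azacytidine, an inhibitor of DNA methyltransferases, and CHQ was ELA formed with 100 µM 5-carboxy-8-hydroxyquinoline, which inhibits demethylases of histone lysines. Each array held pooled RNA of 3 experiments on this single line, so no group had a replicate array and no p-value could be given. An array of SmarcA4 knockdown was not analysed here.

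MiRNAs are made in steps. In the nucleus the Microprocessor, formed by the nuclease Drosha and its RNA-binding partner Dgcr8, cuts the primary transcript into a hairpin, and Exportin-5 (Xpo5) carries the hairpin to the cytoplasm. There Dicer1, with its partner Tarbp2, cuts it to a short duplex. An Argonaute keeps 1 strand as its guide and forms the core of the RNA-induced silencing complex (RISC), and GW182 proteins such as Tnrc6a link RISC to deadenylation and decay of the target. Ago2 is the Argonaute that can itself slice a target. Established ES cell lines without Dicer1 or Dgcr8 are known to differentiate poorly. The study reported that acute loss of Dicer, or of Ago1 and Ago2, lowered pluripotency markers and raised early neural markers.

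The ES and ELA arrays lay on slide 1 and the AZA and CHQ arrays on slide 2. ELA against ES and CHQ against AZA were therefore comparisons within a slide, while in AZA against ELA and CHQ against ELA the slide and the treatment cannot be told apart. Signal well above background was found in 55.1% to 60.6% of gene spots on slide 1 and in 69.1% to 69.2% on slide 2, and the median local background was 59 to 77 intensity units on slide 1 and 13 to 14 on slide 2. No spot was saturated. Markers of the labelled states were as follows. All 7 markers of undifferentiated cells (Pou5f1, Sox2, Nanog, Zfp42, Klf4, Esrrb and Dppa3) and all 4 of primed epiblast (Fgf5, Otx2, Pou3f1 and Dnmt3b) were well above background on all 4 arrays, with median levels of 14.93, 12.08, 14.05 and 13.41 (log2 intensity) for the former and 14.82, 15.52, 14.91 and 15.51 for the latter in ES, ELA, AZA and CHQ. Of 5 primitive endoderm markers, 3 were above background in ES, 2 in ELA, 5 in AZA and 4 in CHQ, with median levels of 7.18, 6.76, 7.70 and 7.73. The sets did not move together. Among markers of undifferentiated cells, CHQ was above ELA with Zfp42 (15.04 and 11.99), Esrrb (13.97 and 12.08), Klf4 and Sox2, near it with Nanog (12.54 and 12.53) and below it with Dppa3 and Pou5f1 (13.56 and 14.46 for the latter). Of the endoderm markers, Gata6 was at 6.41, 6.69, 8.06 and 9.89, and Dab2 at 7.48, 8.25, 6.78 and 6.91. The 4 neural markers (Sox1, Pax6, Nes and Tubb3) had medians of 10.33, 10.74, 9.24 and 8.90, and each was lower on both treated arrays than in ELA. Medians were 8.61, 7.71, 7.69 and 7.57 for 5 fibroblast markers and 7.63, 6.39, 7.19 and 7.03 for 3 trophoblast markers. In such bulk RNA, fewer cells of a type and less RNA per cell cannot be told apart, and the part of these markers in the results below was not tested.

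The arrays read each transcript through 60-base probes, so the sequences behind the values are short stretches of the mRNA. The pairs of probes to 1 gene are called probe 1 (5′) and probe 2 (3′) by their place in the transcript. An mRNA stretch with a stop codon in all 3 forward frames cannot lie wholly in coding sequence. This held for 3 of the 14 probes (Drosha probe 2, Ago4 probe 1 and Tnrc6a), beside 20.7% of all 55681 probes. The polyadenylation hexamer AATAAA, searched on the probe strand, was in 3 of the 14 (Drosha probe 2, Tarbp2 and Ago3), beside 10.1% of all probes. Some of the probes with an open frame are shown because they report opposite patterns described below. They are Drosha probe 1 at chr15:12864767-12864826 (plus strand, mouse build mm9, from base 4291 of the transcript), Xpo5 at chr17:46378755-46378814 (plus strand, from base 3458) and Ago1 probe 1 at chr4:126117202-126117261 (minus strand, from base 2289).
Drosha probe 1: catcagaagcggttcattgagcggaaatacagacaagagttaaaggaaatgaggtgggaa
Xpo5: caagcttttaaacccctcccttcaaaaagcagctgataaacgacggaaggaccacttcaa
Ago1 probe 1: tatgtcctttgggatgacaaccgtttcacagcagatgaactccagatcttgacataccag

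The other probes lay, in mm9, at chr15:12864964-12865023 (Drosha probe 2), chr16:18254226-18254285 (Dgcr8), chr12:105926064-105926123 (Dicer1), chr15:102353974-102354033 (Tarbp2) and chr7:130338627-130338686 (Tnrc6a). Ago1 probe 2 lay at chr4:126112644-126112703, Ago3 at chr4:126032332-126032391, Ago4 probe 1 at chr4:126169537-126169596 and Ago4 probe 2 at chr4:126167162-126167221. Ago1, Ago3 and Ago4 are thus neighbours on chromosome 4. The Ago2 probes lay on chromosome 15, at chr15:72936863-72936922 (probe 1) and chr15:72935705-72935764 (probe 2). Exon and UTR annotation of this build was not used here.

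A probe was called higher or lower where its log2 difference reached 1 in size, provided that its mean level over the pair of arrays reached 7.5 and that 1 or both arrays showed it well above background. By this rule 4 of the 10 genes were called in some comparison (Ago4, Drosha, Tarbp2 and Ago2, through 1 probe each) and 6 in none. In probes, 4 of the 11 that passed the filter in any comparison were called, or 36.4%, beside 36.2% of all 27538 such probes. With quantile normalisation 4 probes (Dgcr8, Dicer1, Ago2 probe 1 and Ago3) differed by less than 0.5 in all 4 comparisons. This did not hold with the arrays scaled to spike-in RNA. There Dgcr8 was at -0.77 and Ago3 at -0.55 for ELA against ES, and Dicer1 at -0.66 for CHQ against ELA. Ago2 probe 1 was at -0.61 for CHQ against AZA. With 75th percentile scaling Ago3 alone passed 0.5, at -0.56 for ELA against ES. The error given with each difference is the SD expected of a difference between 2 arrays from repeat spots of the same probe, 0.15 to 0.24 on the log2 scale by brightness. It covers spotting and reading, not the cultures, so a difference beyond it is beyond reading error only. All member probes had 1 usable spot on each array, and 13 of 14 were well above background on all 4 arrays.

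**Figure D1:**
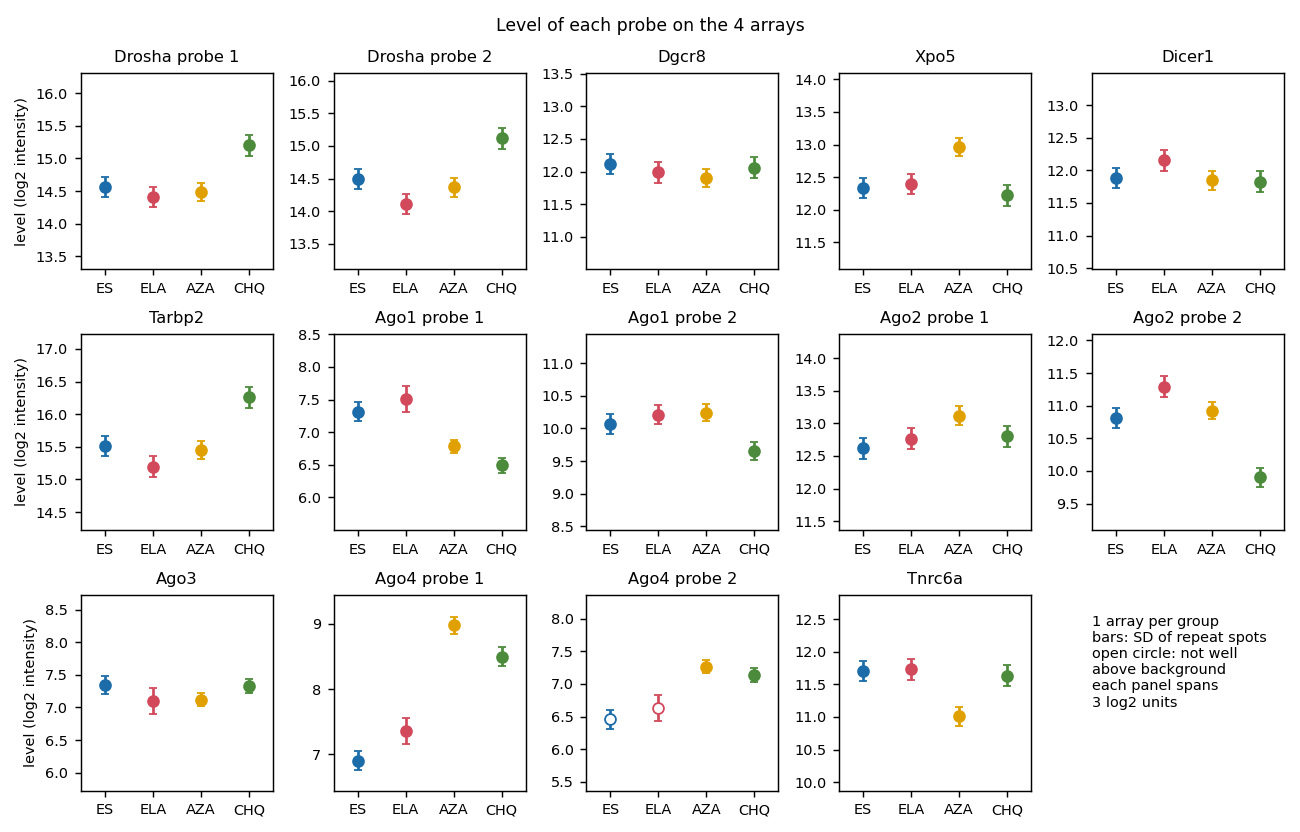
Level (log2 intensity) of each of the 14 probes on the ES, ELA, AZA and CHQ arrays; each panel spans 3 log2 units, bars are the SD of repeat spots and open circles mark values not well above background. At the quantile normalisation shown, Drosha and Tarbp2 were highest on the CHQ array and Xpo5 and Ago4 on the AZA array. Ago2 probe 2 and both Ago1 probes were lowest on the CHQ array. With the arrays scaled to spike-in RNA, ES was the highest for Drosha, Tarbp2 and Xpo5.

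With quantile normalisation the Microprocessor nuclease and its partner parted on the CHQ array. Drosha probe 1 was at 14.57 in ES, 14.41 in ELA, 14.49 in AZA and 15.20 in CHQ (log2 intensity). Drosha probe 2 was at 14.49, 14.11, 14.37 and 15.12 in the same order. With the quantile normalisation used here, the CHQ array was the highest with both probes and the other 3 lay close together. Against ELA, CHQ was higher by 0.79 ± 0.22 with probe 1 and by 1.01 ± 0.22 with probe 2 (log2 difference ± spot SD), of which only probe 2 was called. Within slide 2, CHQ exceeded AZA by 0.72 ± 0.22 and 0.75 ± 0.22, which did not reach the call. The size of the CHQ difference depended on the scaling. Against ELA it was 0.39 and 0.54 with each array scaled to its 75th percentile, and 0.09 and 0.33 with the arrays scaled to spike-in RNA. ELA differed from ES by -0.34 and -0.50 with the 75th percentile, so CHQ and ES were then nearly level. With spike-in RNA it differed from ES by -0.87 and -1.11, so ES was then the highest array with both probes. Those scalings also moved the median of all probes that passed the filter, from -0.11 to -0.27 and -0.58. Relative to that median, probe 2 differed by 1.13, by 0.81 with the 75th percentile and by 0.91 with spike-in RNA. Probe 1 differed by 0.91, 0.66 and 0.67. Dgcr8 was at 12.11 in ES, 11.99 in ELA, 11.90 in AZA and 12.06 in CHQ. With this normalisation its 4 arrays lay within 0.21 of each other, no neighbouring pair in their order differing by 2 spot SDs. With spike-in RNA, Dgcr8 in ELA differed from ES by -0.77. AZA and CHQ then differed from ELA by -0.10 and -0.27, so ES was the highest array, as for Drosha. Relative to the median of all probes, Dgcr8 differed between CHQ and ELA by 0.18, by 0.25 with the 75th percentile and by 0.31 with spike-in RNA.

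Xpo5, the export receptor of the hairpin, was at 12.33 in ES, 12.40 in ELA, 12.96 in AZA and 12.22 in CHQ. The AZA array stood above the other 3, which lay within 0.18 of each other. AZA exceeded ELA by 0.57 ± 0.21, and within slide 2 CHQ was below AZA by 0.74 ± 0.22 (log2 difference -0.74). Neither was called, although the latter came to -1.02 with spike-in scaling. At that scaling ELA differed from ES by -0.57 and AZA from ELA by 0.48, so ES was the highest array.

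Dicer1 and its partner Tarbp2 also parted. Dicer1 was at 11.88 in ES, 12.15 in ELA, 11.85 in AZA and 11.82 in CHQ. It was highest in ELA (in ES with spike-in scaling), with all neighbouring arrays in order less than 2 spot SDs apart. The treated arrays were 0.31 and 0.33 below ELA (log2 differences -0.31 ± 0.21 for AZA and -0.33 ± 0.22 for CHQ). Tarbp2 was at 15.51 in ES, 15.19 in ELA, 15.45 in AZA and 16.26 in CHQ. Its order over the arrays, CHQ above ES above AZA above ELA, was the order of both Drosha probes. ES, AZA and ELA again lay closer to each other than to CHQ. ES and AZA, and AZA and ELA, were less than 2 spot SDs apart with each of these probes. This order depended on the scaling. ELA differed from ES by -0.43 with 75th percentile scaling, which put ES close to CHQ. With spike-in scaling it differed by -0.99, and ES was the highest array. CHQ was called higher than ELA by 1.06 ± 0.22, or 2.09-fold, and exceeded AZA within slide 2 by 0.81 ± 0.22 without reaching the call. As for Drosha, the difference from ELA was smaller with 75th percentile scaling (0.58) and with spike-in scaling (0.24), which ended the call. Relative to the median of all probes it was 1.18, 0.85 and 0.82.

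Drosha and Tarbp2 were called higher in CHQ against ELA, as was Ago4, which was also called higher in AZA. The upstream stretches of these 3 genes are shown with each CpG (CG), the dinucleotide that is methylated in mammals, in capitals. Methylation was not measured, and no link of these letters to a treatment was tested. They are the 250 bases before the gene start in RefSeq (build GRCm38.p6): chr15:12824565-12824814 on the plus strand for Drosha, chr15:102517942-102518191 on the plus strand for Tarbp2 and chr4:126533459-126533708 on the minus strand for Ago4.
Drosha: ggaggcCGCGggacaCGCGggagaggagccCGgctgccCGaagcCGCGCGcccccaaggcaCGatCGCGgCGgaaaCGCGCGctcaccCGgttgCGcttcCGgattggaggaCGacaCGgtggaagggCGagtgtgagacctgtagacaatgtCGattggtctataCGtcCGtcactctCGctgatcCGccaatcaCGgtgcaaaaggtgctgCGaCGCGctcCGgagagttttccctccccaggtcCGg
Tarbp2: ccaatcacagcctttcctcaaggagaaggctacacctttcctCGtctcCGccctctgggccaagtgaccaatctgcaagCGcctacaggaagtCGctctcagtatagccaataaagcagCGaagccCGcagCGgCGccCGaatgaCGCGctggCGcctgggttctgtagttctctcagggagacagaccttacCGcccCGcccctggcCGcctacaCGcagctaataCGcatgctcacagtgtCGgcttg
Ago4: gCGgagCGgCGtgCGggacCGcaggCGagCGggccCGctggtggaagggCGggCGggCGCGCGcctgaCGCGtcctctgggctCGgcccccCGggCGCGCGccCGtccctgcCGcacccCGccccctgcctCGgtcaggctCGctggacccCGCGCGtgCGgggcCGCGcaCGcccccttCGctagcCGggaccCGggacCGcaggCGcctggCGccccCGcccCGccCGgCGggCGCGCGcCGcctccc

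The Ago4 stretch held 46 CpGs, a count reached by 0.323% of the 32851 promoters of the same length in RefSeq. The Drosha stretch held 33 (4.03% of promoters hold as many or more) and the Tarbp2 stretch 18 (21.7%), while the median promoter held 6. RefSeq sequences were matched for 9 of the 10 genes, in 10 promoters because Ago1 has 2, which overlap. The other members held 9 (Tnrc6a) to 39 (Dicer1). The GC box GGGCGG, on either strand, was in 8 of the 10 member promoters, Ago4 and Tarbp2 among them, beside 32.7% of all promoters. CCAAT, on either strand, was in 6 of the 10, Drosha and Tarbp2 among them, beside 33.8% of all, and the E-box CACGTG in 0 of the 10, beside 6.02% of all. Counted by gene, the GC box was in 7 of 9 and CCAAT in 5 of 9. These are matches of letters in a window, and they were not tied to the measured levels.

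Ago4 held the largest range among the members. Its probe 1 was at 6.90 in ES, 7.36 in ELA, 8.98 in AZA and 8.50 in CHQ (log2 intensity). Both treated arrays stood above both untreated ones. AZA was called higher than ELA by 1.62 ± 0.24 (3.07-fold) and CHQ by 1.14 ± 0.24 (2.20-fold), against the same ELA array. Within slide 2, CHQ was below AZA (log2 difference -0.48 ± 0.19). Probe 2 gave 6.46 in ES and 6.63 in ELA, where it was not well above background, and 7.27 in AZA and 7.14 in CHQ, where it was. At this scaling it was at least 1.56-fold higher in AZA than in ELA and at least 1.42-fold higher in CHQ. Its log2 differences from ELA were 0.15 for AZA and -0.27 for CHQ with spike-in scaling, but 1.45 and 1.19 with 75th percentile scaling and 1.39 and 1.28 in the authors' value table. These values were low and stood on unequal backgrounds. Probe 1 had a mean intensity of 131 over a local background of 60 on the ES array and 180 over 85.5 on ELA, but 465 over 14 on AZA and 336 over 13 on CHQ. Local background moved with the slide, and its part in the Ago4 difference was not tested. With spike-in scaling the CHQ difference of probe 1 was 0.60, below the call. In the authors' value table it was 1.43, but the mean level fell below 7.5 there, which also ended the call.

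Ago1 gave different patterns with its probes, and CHQ was the lowest array with both. Probe 1 was at 7.31 in ES, 7.51 in ELA, 6.79 in AZA and 6.49 in CHQ, and both treated arrays lay below both untreated ones. Against ELA it gave -0.73 ± 0.22 in AZA and -1.02 ± 0.23 in CHQ. Over the 5 other scalings and corrections it ran from -1.53 to -0.88 in AZA and from -2.67 to -1.32 in CHQ. It is not among the calls because its mean level was below 7.5. It was close to background too, at 191 over 80 on the ELA array and 44.6 over 13 on CHQ. Probe 2, read from a stretch that starts 4328 bases further 3′, was at 10.06 in ES, 10.21 in ELA, 10.24 in AZA and 9.65 in CHQ. CHQ was the lowest array here too, by -0.56 ± 0.21 from ELA and by -0.59 ± 0.19 from AZA within slide 2, but its gap of 0.41 to ES was under 2 spot SDs. For AZA against ELA the probes of Ago1 gave -0.73 and 0.03 and so showed unequal change.

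The probes of Ago2, the slicing Argonaute, showed the widest gap among the genes with 2 probes for CHQ against ELA, whereas for AZA against ELA the gaps of Ago4 (0.98) and Ago1 (0.76) were wider than that of Ago2 (0.72). Probe 1 was at 12.62 in ES, 12.76 in ELA, 13.12 in AZA and 12.80 in CHQ, and its neighbouring arrays in order differed by less than 2 spot SDs. Probe 2, which starts 1158 bases further 3′ in the same transcript, was at 10.81 in ES, 11.29 in ELA, 10.92 in AZA and 9.90 in CHQ. With quantile normalisation CHQ was the lowest array with probe 2 and the second highest with probe 1. The rank with probe 1 depended on the scaling. With 75th percentile scaling probe 1 gave 0.11 for ELA against ES and -0.17 for CHQ against ELA. With spike-in scaling these were -0.51 and -0.36. Against AZA, CHQ was at -0.37 and -0.61 with those scalings, so it was then the lowest array with both probes. CHQ was called lower than ELA with probe 2 (log2 difference -1.39 ± 0.21, or 2.63-fold lower), while probe 1 gave 0.04 ± 0.22. The difference between the probes was 1.43 in that comparison (probe 2 minus probe 1, -1.43). Among the 3396 gene names on the arrays with exactly 2 probes past the filter, the median gap was 0.42 for CHQ against ELA, and 18.1% had a gap of 1 or more. CHQ was called lower than AZA as well, within slide 2, by -1.02 ± 0.19 with probe 2 against -0.32 ± 0.22 with probe 1. There the gap was 0.71, where the median over 3320 names was 0.16 and 3.43% reached 1. The call of Ago2 probe 2 in both comparisons held under the other 5 scalings, between -1.66 and -1.39 against ELA and between -1.26 and -1.04 against AZA.

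Ago3 was at 7.34 in ES, 7.10 in ELA, 7.12 in AZA and 7.32 in CHQ. It was well above background on each array, yet its mean level stayed below 7.5 in every comparison. With quantile normalisation its 4 arrays lay within 0.24 of each other, and no neighbours in their order differed by 2 spot SDs. These values were low and stood on unequal backgrounds. The mean intensity was 175.5 over a local background of 60 on ES and 144 over 73 on ELA. On AZA it was 91.1 over 13.5 and on CHQ 119 over 14. So near background, the closeness of the arrays says little.

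**Figure D2:**
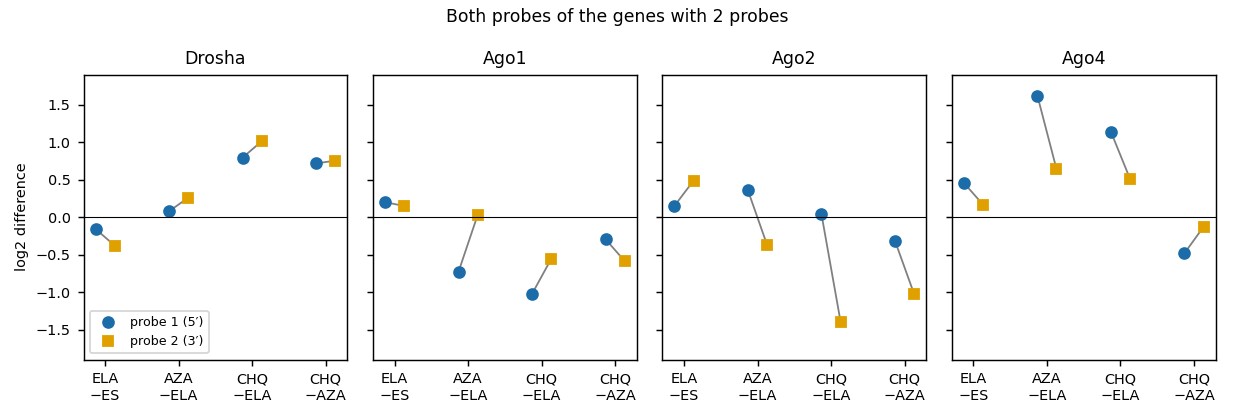
Log2 difference of probe 1 (5′, circles) and probe 2 (3′, squares) of Drosha, Ago1, Ago2 and Ago4 in the 4 comparisons; the grey line joins the probes of a gene. The Drosha probes lay at most 0.22 apart, while Ago2 reached a gap of 1.43 for CHQ against ELA.

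Across the 4 genes with 2 probes, both probes had the same sign in 4 genes for ELA against ES, in 2 for AZA against ELA (Drosha and Ago4), in 3 for CHQ against ELA (all but Ago2) and in 4 for CHQ against AZA. Ago4 probe 2 was not well above background on the ES and ELA arrays, and without it the first 3 counts were 3, 1 and 2 of 3 genes. In all gene names with 2 probes the median gap was wider across slides (0.40 and 0.42) than within them (0.16 for both).

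Tnrc6a, the GW182 protein among the members, was at 11.71 in ES, 11.73 in ELA, 11.01 in AZA and 11.63 in CHQ. The AZA array stood below the other 3, which lay within 0.09 of each other with quantile normalisation. With spike-in scaling AZA was still the lowest, but the others spread. ELA then differed from ES by -0.59 and CHQ from ELA by -0.42, and CHQ exceeded AZA by 0.33. The values that follow are again those of the quantile normalisation. AZA differed from ELA by -0.72 ± 0.21 and CHQ exceeded AZA by 0.62 ± 0.22 within slide 2, and neither was called.

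**Figure D3:**
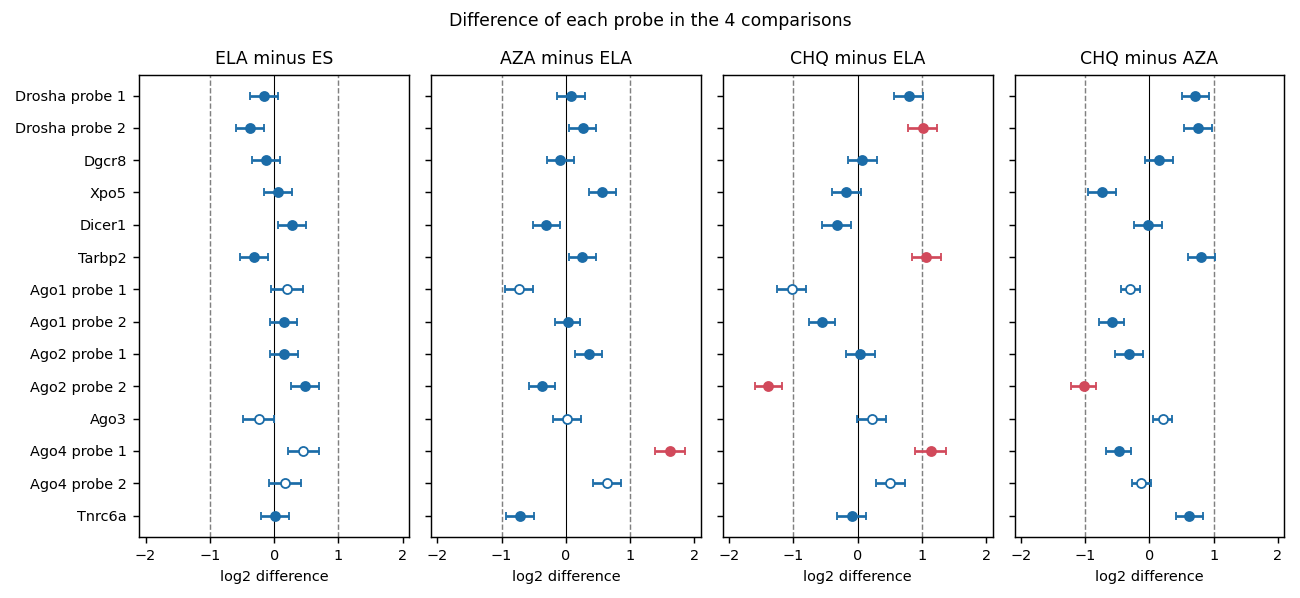
Log2 difference of each of the 14 probes in the 4 comparisons, with the spot SD of a difference as the bar; dashed lines mark 1 log2 unit, red points are called and open points did not pass the filter on low values. No member probe was called for ELA against ES, 1 for AZA against ELA, 4 for CHQ against ELA and 1 for CHQ against AZA.

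The first comparison asked whether the machinery itself differs in transcript level between ES cells grown in serum with LIF and ELA. For ELA against ES, 10 of 14 member probes passed the filter and 0 were called in either direction, where 9.69% of all 25166 probes that passed were called (4.07% higher and 5.63% lower). All 14 differences lay between -0.38 (Drosha probe 2) and 0.49 (Ago2 probe 2). The median over the 14 probes was 0.11, with 9 above 0 and 5 below. The median size of the difference was 0.15 over the 10 probes that passed, beside 0.27 over all probes that passed. Spike-in scaling lowered this whole comparison: the median over all probes that passed went from -0.02 to -0.58 and that of the members to -0.53, and Drosha probe 2 was then called lower at -1.11.

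The next comparisons asked how the treatments changed these transcripts in ELA. They share the ELA array, so each is given by its own values. For AZA against ELA, 11 of 14 probes passed and 1 was called, Ago4 probe 1 (higher), which is 9.09% beside 26.3% of all 25330 probes that passed and 14.1% called higher. The median over all probes was -0.10, -0.22 with 75th percentile scaling and -0.26 with spike-in scaling. The 14 differences ran from -0.73 (Ago1 probe 1) to 1.62 (Ago4 probe 1), with a median of 0.05. The median size among those that passed was 0.31, beside 0.55 for all probes. For CHQ against ELA, 11 passed and 4 were called, 3 higher (Ago4 probe 1, Tarbp2 and Drosha probe 2) and 1 lower (Ago2 probe 2). That is 36.4% of 11 probes from 9 genes, beside 26.9% of all 25310 probes that passed, 14.2% called higher and 12.7% called lower. The differences ran from -1.39 (Ago2 probe 2) to 1.14 (Ago4 probe 1), with a median of 0.05 and a median size of 0.56, beside 0.58 for all probes. The split of higher and lower calls moved with the scaling: over all probes 52.7% of calls were higher here, but 40.7% with 75th percentile scaling and 23.9% with spike-in scaling, with the median of all probes that passed going from -0.11 to -0.27 and -0.58, and the 3 higher calls among the members went to 1 and to 0.

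For CHQ against AZA, the treatments compared within slide 2, 11 probes passed and 1 was called, Ago2 probe 2 (lower), which is 9.09% beside 9.68% of all 25363 probes that passed, 5.02% called higher and 4.65% called lower. The median size of the members' differences was 0.62, beside 0.29 for all probes, and 2 of the 11 lay below that median (Dgcr8 and Dicer1). Tarbp2, both Drosha probes and Tnrc6a were 0.62 to 0.81 higher in CHQ than in AZA, or 0.24 to 0.33 with spike-in scaling. Xpo5, Ago2 probe 2 and Ago1 probe 2 were lower there, by log2 differences of -0.74, -1.02 and -0.59. Spike-in scaling moved the median of all probes here from -0.03 to -0.35. No test of this list was possible with 1 array a group.

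**Figure D4:**
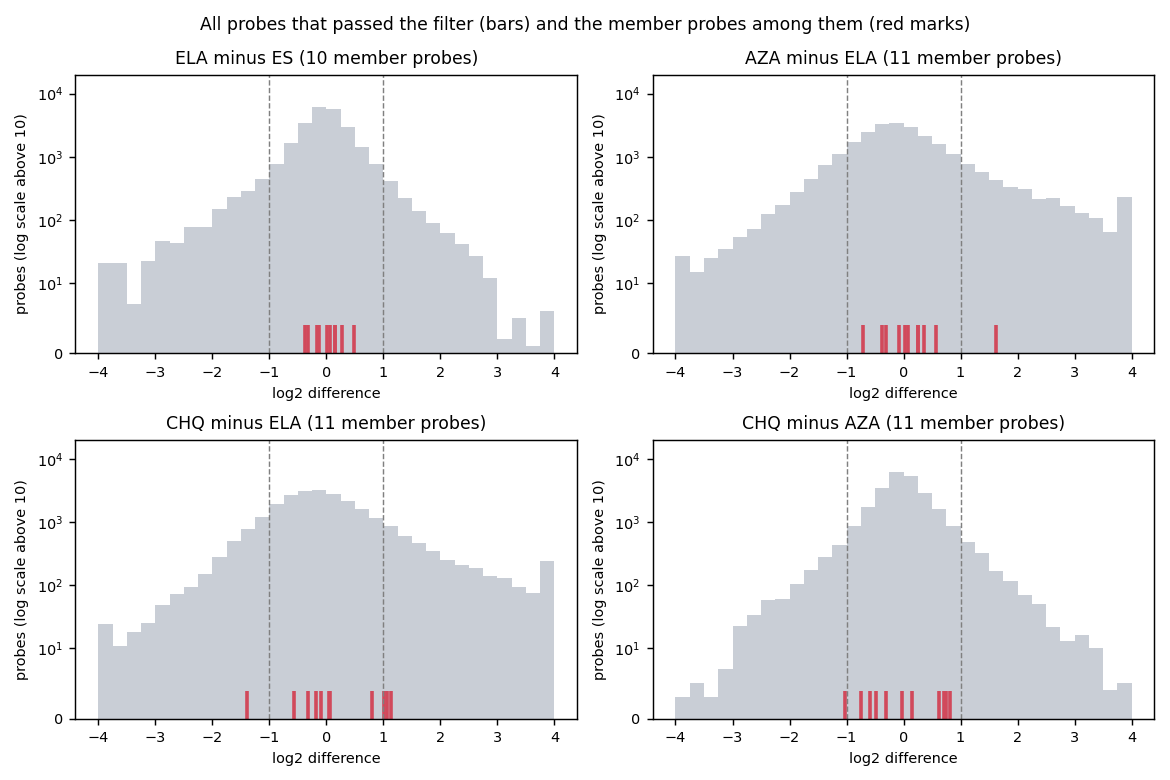
Number of all probes that passed the filter, in bins of 0.25 log2 units (bars, with values beyond 4 in the end bins), and the member probes among them (red marks) in the 4 comparisons; dashed lines mark 1 log2 unit and the vertical axis is logarithmic above 10. The members stayed between -0.38 and 0.49 for ELA against ES and reached -1.39 and 1.14 for CHQ against ELA.

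The rest of the pathway was described through 71 further genes with 98 probes, from Microprocessor cofactors to decay enzymes. For ELA against ES, 2 of 94 probes that passed were called higher and 2 lower, or 4.26% beside 9.69% of all probes. The higher ones were Tnrc6c, a GW182 protein, by 1.49, and Prkra, a Dicer partner, by 1.30, and the lower ones Mov10, a helicase bound to RISC (-1.59), and Piwil2, a germline PIWI protein (-1.21). With spike-in scaling the higher ones were at 0.94 and 0.72, which ended both calls, and 15 probes were called lower. For AZA against ELA, 3 of 93 were called higher and 15 lower, and for CHQ against ELA 4 higher and 14 lower, 19.4% called in each, beside 26.3% and 26.9%. The lower calls made up 16.1% and 15.1% of the list's probes, beside 12.2% and 12.7% of all probes that passed, and the higher calls 3.23% and 4.3%, beside 14.1% and 14.2%. With 75th percentile scaling AZA had 1 higher and 18 lower calls and CHQ 1 and 21, and with spike-in scaling AZA had 1 and 18 and CHQ 0 and 32. For CHQ against AZA it was 2 higher and 1 lower of 93, or 3.23% beside 9.68%.

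Against ELA, the largest lower call in AZA was Lin28b and in CHQ Lin28a. The Lin28 proteins bind let-7 precursors and block their processing. Lin28a was at 15.23 in ES, 15.78 in ELA, 14.21 in AZA and 13.49 in CHQ, a difference of -1.57 for AZA and -2.29 for CHQ against ELA. Of the 2 Lin28b probes, the one at chr10:45096468-45096527 was at 13.72, 14.26, 10.84 and 12.43. AZA differed from ELA by -3.42 there and by -2.48 with the other probe, and CHQ by -1.83 and -1.98, all called lower. With 75th percentile scaling the other, dimmer probe gave -3.94 for AZA and -2.75 for CHQ. Prkra (-1.85 in AZA and -1.66 in CHQ) and Fkbp4, a cochaperone of Argonaute loading (-1.12 and -1.70), were called lower in both treatments. The higher calls in AZA were Mov10 (2.20), Fxr2 of the fragile X family (1.04) and Piwil2 (1.01). Fxr2 was at 0.78 with 75th percentile and 0.82 with spike-in scaling and Piwil2 at 0.78 with spike-in scaling, below the call. With 75th percentile scaling Piwil2 was at 1.29, but the filter on low values ended its call, so Mov10 alone stayed called higher. Those in CHQ were the uridylyl transferases Tut7 (1.41) and Tut4 (1.06), which tail precursors, Zswim8 (1.07), a ubiquitin ligase adaptor that acts on Argonaute, and Piwil2 (1.03). The other Tut4 probe gave 0.82 and was not called. With 75th percentile scaling Tut4 was at 0.82 and Zswim8 at 0.86, below the call. Piwil2 was at 1.30 there, but the filter on low values ended its call, so Tut7 alone stayed called higher. With spike-in scaling Tut7, Tut4, Zswim8 and Piwil2 were at 0.95, 0.69, 0.58 and 0.53, all below the call. Within slide 2, that Lin28b probe (1.60) and Tnrc6c (1.14) were called higher and Mov10 lower (-2.13) in CHQ than in AZA. The other Lin28b probe gave 0.50, or 1.18 with 75th percentile scaling, and Tnrc6c was at 0.85 with spike-in scaling.

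By groups, the 8 Microprocessor and nuclear cofactors had 0 higher and 4 lower calls among 15 probes in AZA and 0 and 5 in CHQ, against ELA, where 12.2% and 12.7% of all probes were called lower and 14.1% and 14.2% higher. The 12 tailing and decay genes had 0 higher and 5 lower among 14 in AZA and 3 and 4 in CHQ. The 24 GW182, deadenylation and decapping genes had 1 lower and 0 higher call among 27 probes in each treatment. The 9 genes of Dicer partners and loading had 0 higher and 2 lower calls among 13 probes in AZA and 0 and 3 in CHQ, and the 13 other RISC-associated factors 2 and 3 among 19 in AZA and 0 and 1 in CHQ. Ran and Xpo1, the export genes, had 0 calls among 4 probes. However, 1 Ran probe was at -1.11 in AZA and -1.09 in CHQ with 75th percentile scaling and at -1.15 and -1.42 with spike-in scaling. The other Ran probe went the other way, at 0.35 and 0.37 with 75th percentile scaling and at 0.395 and 0.17 with spike-in scaling. Some of these calls were not shared by the other probes of the gene: in AZA Ddx5 gave -1.31 with 1 probe and -0.20 and 0.14 with the others, and Khsrp -1.08 and -0.03. Both genes were picked out after their values were seen. No group was tested against those shares. Calls by group were counted with quantile normalisation only. The lower calls of the whole list for CHQ against ELA rose from 14 to 21 with 75th percentile and to 32 with spike-in scaling. The other GW182 proteins of the family were Tnrc6b, at 9.72, 10.00, 10.09 and 10.86 in ES, ELA, AZA and CHQ, and Tnrc6c, at 9.82, 11.31, 10.63 and 11.77. Like Tnrc6a, both had CHQ above AZA within slide 2. Of the PIWI proteins, Piwil2 was at 8.79, 7.58, 8.59 and 8.61. Piwil1 was not well above background on the ES and ELA arrays and Piwil4 on the ES, ELA and AZA arrays, and their highest levels were 6.73 and 6.85, both on the CHQ array.

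Ago4 probe 1 held the largest range among the brightest probes of the members, 2.08 log2 units. The profiles closest to it, by Euclidean distance between profiles centred on their mean over the 4 arrays, were those of Snap91 (0.14) and Pink1 (0.14). With 4 arrays many genes come close: 70 of 12363 lay within 0.5.

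**Figure D5:**
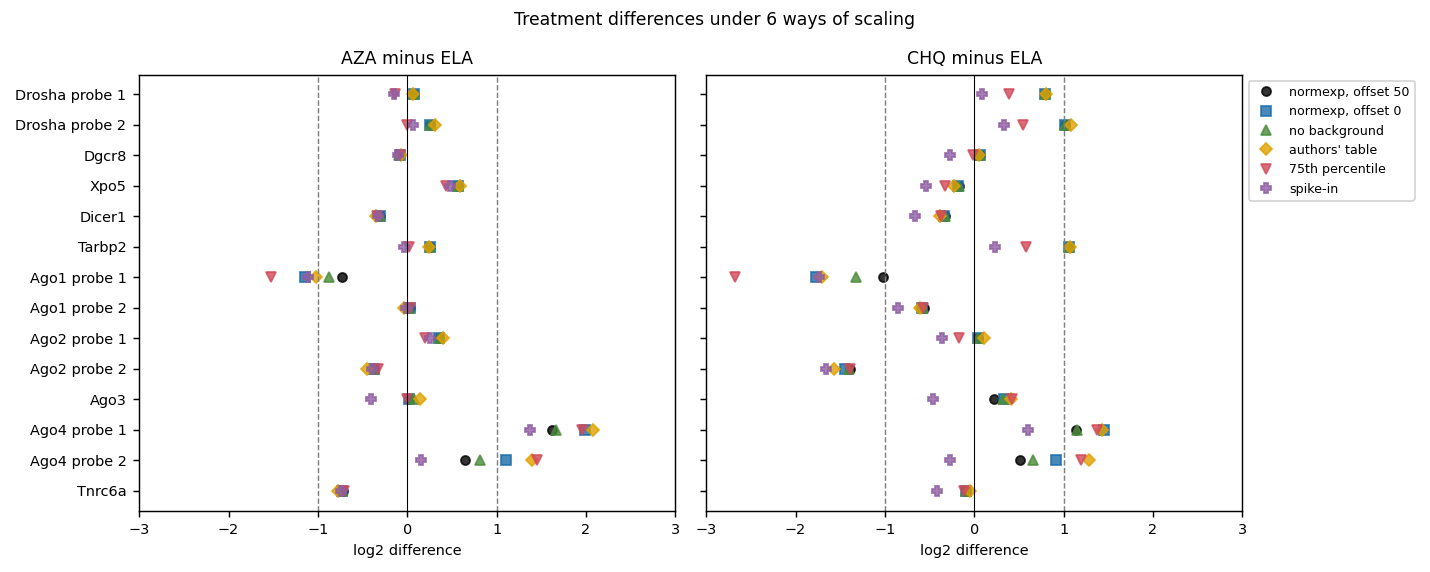
Log2 difference of each member probe for AZA and CHQ against the shared ELA array under 6 ways of correcting and scaling the arrays; dashed lines mark 1 log2 unit. Ago2 probe 2 stayed below -1.3 for CHQ under all 6, while for CHQ Drosha and Tarbp2 were at 0.79 to 1.08 under 4 of them, 0.39 to 0.58 with 75th percentile scaling and 0.09 to 0.33 with spike-in scaling, and the dim probes of Ago1 and Ago4 spread most.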

How the data were processed

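Total RNA of ES, ELA, AZA and CHQ cells (1 array each, a pool of 3 experiments) was labelled with Cy3 and hybridized to Agilent 8x60K mouse arrays. The authors read the images with Feature Extraction, version 10.7.3.1 per the file headers and 9.1 per the submitters' processing notes. The deposited scanner files hold per spot a mean intensity, a local background intensity and a processed intensity, not normalised between arrays. The authors also deposited a table of log2 values, made with limma by background correction and quantile normalisation between arrays, and its background method is not given in the sources used here. It correlated with a normexp correction without offset at 0.999 on each array (medians 6.21 to 6.24).

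Here, mean intensities were corrected with normexp (limma 3.58.1, R 4.3.3, offset 50) and quantile normalised over the 4 arrays. Control spots and spots with an outlier flag were then left out, and the spots of a probe were averaged. Probes of a gene were kept apart, except that profiles were compared and markers given through the probe with the highest mean per gene. The steps were tested on simulated data. Of 55681 probes, 559 had no usable spot on some array. A call needed a log2 difference of 1, a mean of 7.5 and a signal well above background on at least 1 array, so it rests on size alone. The size thresholds follow the study's methods. A probe not well above background on 1 array was bounded by its own level or the lowest level called above background there, whichever was higher. Repeat spots of 432 probes gave an SD of 0.12 to 0.17 within an array. With a single array per group, the number of arrays limits the precision. Alternatives were scaling of the processed intensity to the 75th percentile, no background correction, an offset of 0, the authors' value table, scaling to spike-in RNA and no filter on dim probes. The members and lists were chosen with earlier results of these data known. All member probes are named, with every Tnrc6b, Tnrc6c and Piwil probe and, per comparison, at most 3 rises and 3 falls of the further pathway genes, the largest among called probes. Piwil2 in CHQ falls under the first of these rules. Fkbp4 in AZA and Prkra in CHQ are given beyond them, each beside its value in the other treatment, and were not among the largest falls there. Ddx5, Khsrp, Ran and Xpo1 are also named beyond these rules. The profiles closest to the member with the largest range were taken from genes well above background on all arrays, and 1 of the 3 that the rule names is not reported here.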

Additional observations from a re-analysis of the deposited data

How the results depend on the processing

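Over 56 probe differences (14 probes in 4 comparisons), no call turned its direction. The sign changed in 0 with no background correction, 0 with an offset of 0, 2 with the authors' value table, 6 with 75th percentile scaling and 18 with spike-in scaling, and none of these was a called probe. The count of member probes called higher for CHQ against ELA was 3, but 1 with 75th percentile scaling, 0 with spike-in scaling and 2 with the authors' value table. With spike-in scaling 1 member probe was called lower for ELA against ES (main count 0) and 2 for CHQ against AZA (main count 1). With no filter on dim probes 2 were called lower for CHQ against ELA (main count 1), the added one being Ago1 probe 1. Spike-in scaling moved the median of the member probes to -0.53 for ELA against ES, -0.39 for CHQ against ELA and -0.38 for CHQ against AZA, and that of the further pathway probes to -0.61, -0.64 and -0.28. With only probes well above background on both arrays, the genes whose probes share a sign for AZA against ELA went from 2 to 1, because Ago4 then has 1 probe. The alternatives for the calls among the further pathway probes were chosen after seeing the data. With spike-in scaling these were 0 higher and 15 lower for ELA against ES, 1 higher for AZA and 0 higher and 32 lower for CHQ against ELA, and 1 higher and 3 lower for CHQ against AZA. With 75th percentile scaling 1 was higher in AZA and 1 in CHQ, against ELA, and 4 were higher for CHQ against AZA with the authors' value table. The other counts stayed within 1.5 times and the other medians within the spot SD. With 75th percentile scaling dim probes moved most: Ago1 probe 1 for CHQ against ELA was -2.67 and Ago4 probe 1 for ELA against ES 1.38. With spike-in scaling the largest shift was that of the bright Tarbp2 probe for CHQ against ELA, to 0.24. The slide could not be taken as a block in the treatment comparisons. No paired analysis was possible because each group had 1 array.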

Other observations

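Host transcripts of miRNAs were looked up after the values of the members were seen, and are given as values only. Mir17hg, the host of the miR-17-92 cluster, was at 13.43 in ES, 13.25 in ELA, 13.43 in AZA and 13.43 in CHQ (log2 intensity), all 4 arrays within 0.19 of each other. Mirg, a noncoding host of many miRNAs in the imprinted Dlk1-Dio3 domain of chromosome 12, was lower on both treated arrays with both of its probes. The first was at 13.95 in ES, 14.12 in ELA, 12.62 in AZA and 12.73 in CHQ, and the second at 14.41, 14.92, 13.69 and 14.07. Against ELA these are -1.50 and -1.23 for AZA and -1.39 and -0.85 for CHQ. With spike-in scaling they were -1.63 and -1.46 for AZA and -1.84 and -1.48 for CHQ. Dleu2, the host of miR-15a and miR-16-1, had 3 probes. For AZA against ELA, the first differed by 0.83, the second, not well above background in ELA, was at least 3.52-fold higher in AZA, and the third, not well above background in AZA, was at least 2.26-fold higher in ELA. These bounds hold at the main scaling. The log2 difference of the second was 2.09 there, 1.67 with spike-in and 4.33 with 75th percentile scaling, and that of the third was -1.18, -1.62 and -4.95. Both comparisons cross the slides, so slide and treatment cannot be told apart here.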
